A study of Rattus norvegicus with 8 samples.

Results

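The matrix metalloproteinases (MMPs), the ADAM and ADAMTS proteases, the ADAMTS-like proteins and the tissue inhibitors of metalloproteinases (TIMPs) were examined in whole lungs of newborn rats. Members were the genes whose array annotation gave a single symbol beginning with Mmp, Adam, Adamts, Adamtsl or Timp and a number. Mmp8 and Mmp9, which mark neutrophils, were left out of the family and are given among the neutrophil genes. A gene with several transcript clusters was represented by the one with the highest mean over the 8 arrays. This gave 71 members among 22093 genes, of which 49 passed the filter on low levels and were tested.

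The lungs came from pups of vitamin D deficient dams (4 arrays, titled deficient 1 to 4) and of vitamin D adequate dams (4 arrays, titled adequate 1 to 4). Dams arrived at 4 weeks of age. Deficient dams ate a diet with 0 IU of vitamin D per kg. They went on to mating when a blood test at 8 weeks of age showed under 10 ng/ml of 25-hydroxyvitamin D, the form that circulates. Adequate dams ate the same semi-purified diet with 1000 IU per kg. Calcium (0.5%) and phosphorus (0.4%) were the same in both feeds, all rats lived at Denver altitude without ultraviolet light, the sires were vitamin D replete, and pups were born spontaneously at term. The labels give the age as day 0 and the harvest as day of life 1, and they do not say whether a group came from 1 litter or several. The labels also do not say whether an array holds RNA of 1 pup or of several. The p-values therefore measure the spread between these arrays, and 4 arrays per group limit the precision. Values are log2 expression levels as deposited, and every difference is titled deficient minus titled adequate on that scale.

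The group names conflict within the deposit. In the authors' deposited table of differing transcripts, each of the 8 log2 columns carries values of an array with the same number but with the opposite group name in its title. Groups follow the titles here, so every direction below would turn round under the names of that table. The arrays also differ in ways the titles do not explain. The Y-linked gene Ddx3y lay between 5.71 and 5.90 on the 4 titled deficient arrays, against 13.45, 13.43, 8.71 and 7.40 on titled adequate 1 to 4, and Eif2s3y and Kdm5d followed the same order. Y-linked genes are carried by males, so the sex of the pups and the diet cannot be told apart in the differences below. Fos, an immediate early gene, lay between 6.40 and 7.14 on the titled deficient arrays, against 9.08, 7.98, 13.23 and 12.44 on titled adequate 1 to 4, so that titled adequate 3 and 4 stood apart there too. For members, results that rest on 1 pair of titled adequate arrays are given with and without it. All 10 lung markers passed the level filter, and array medians lay between 5.50 and 5.65.

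MMPs are zinc endopeptidases that cut collagens, elastin, laminins and other matrix proteins, and most are made as inactive precursors. TIMPs block the active site, and with MMP14 on the cell surface TIMP2 also helps to activate pro-MMP2. ADAMs sit in the membrane and several release the outer part of growth factors, cytokine receptors and adhesion proteins, whereas ADAMTS proteases are secreted and cut proteoglycans or process procollagens. ADAMTS-like proteins share the accessory domains of ADAMTS proteins without the protease and bind to fibrillin microfibrils. In mouse lung these families take part in airway branching and in forming alveolar walls: mice without Mmp14 or with inactive Adam17 have abnormal airspaces, and mice without Timp3 develop enlarged ones.

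Among the 49 tested members, 10 passed at an adjusted p of 0.05 (limma, Benjamini-Hochberg over all 15465 genes), 6 lower and 4 higher in titled deficient lungs. Adamts1, Adam8, Mmp11, Adamts2, Adam19 and Timp2 were lower. Adam12, Adamts19, Mmp2 and Adam17 were higher. The share that passed was 20.4%, against 21.9% of all genes, which is close to the background. By direction, the background was 13.7% of all genes lower and 8.24% higher. The groups did not overlap for 16 of 49 members (32.7%), against 28% of all genes. The median difference was -0.08 over the members and -0.02 over all genes, and the median absolute difference was 0.20 and 0.18. Of the 49 tested members 1, Adamts1, differed at least 2-fold, and 324 of all 15465 genes passed with such a difference. Within 0.25 of no difference lay 28 of the 49 members. The median absolute difference of all genes, 0.18, also lies inside that bound, so the count is not particular to the members.

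**Figure D1:**
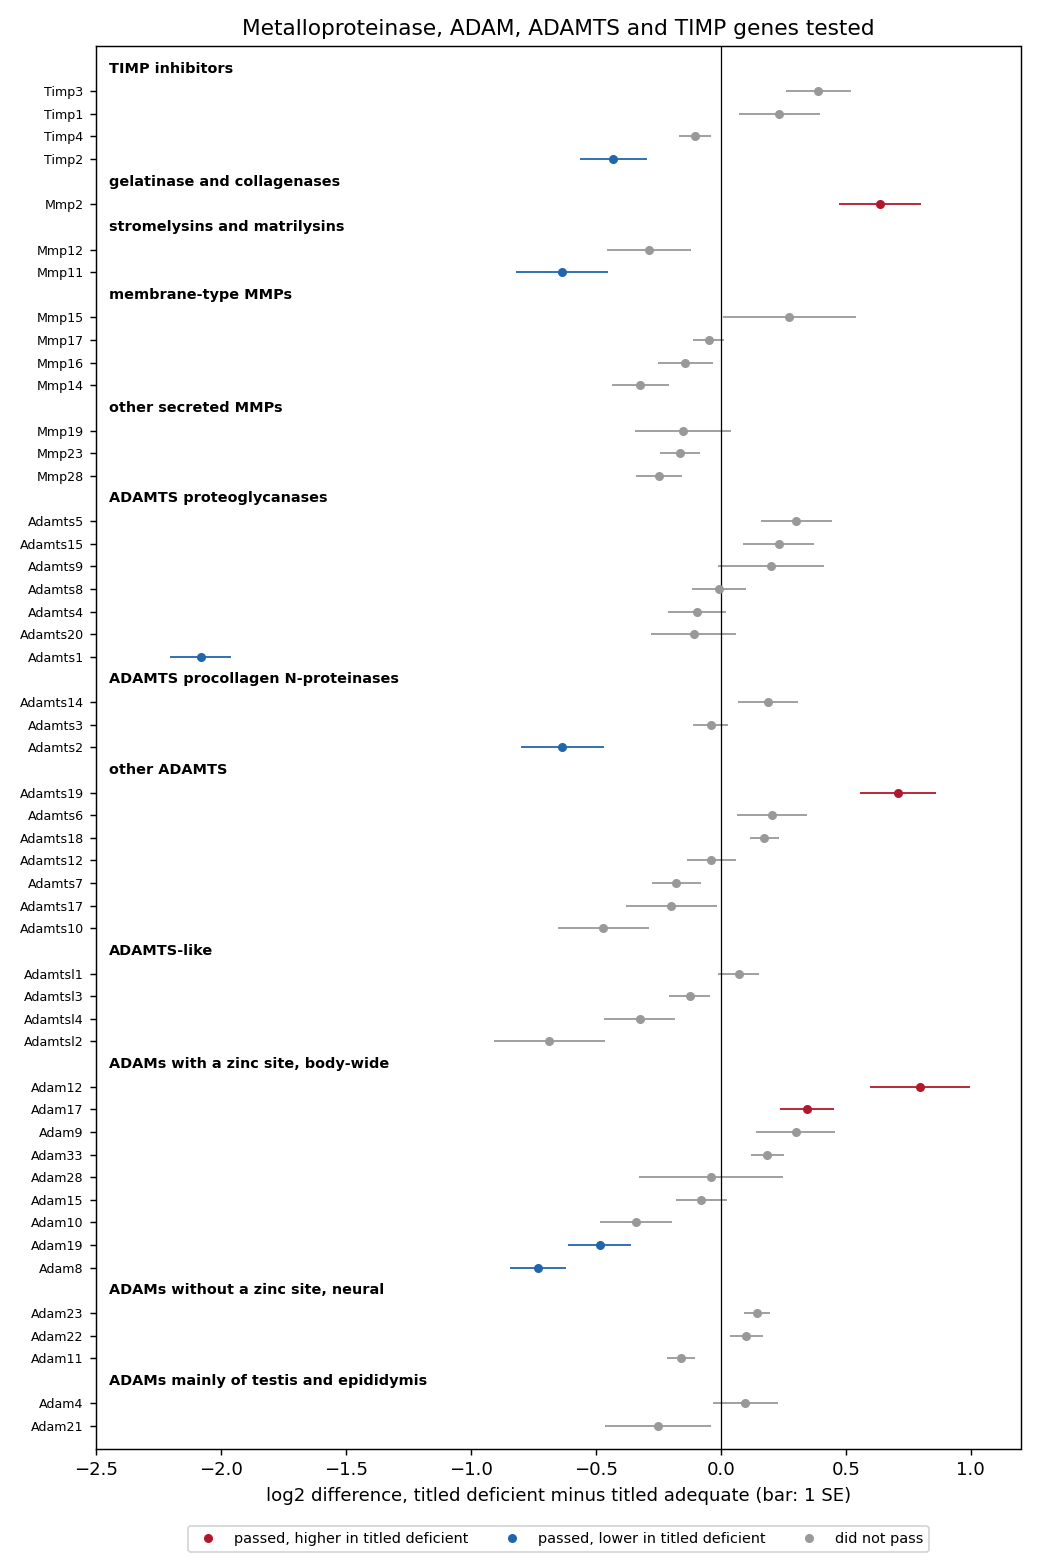
Difference in log2 level, titled deficient minus titled adequate, with its standard error, for the 49 tested members grouped by role (4 arrays per group). Adamts1 stands apart at -2.08, while the other coloured points, which passed at an adjusted p of 0.05, lie between -0.73 and 0.80.

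Scaling of the arrays moved the split between higher and lower genes. As deposited, 37.6% of the called genes were higher in titled deficient lungs. Centring each array on the median of all its transcript clusters gave 19.8%, whereas centring on the median of the tested genes, an alternative chosen after seeing the data, gave 67.1%. The median difference of all genes was -0.09 and 0.09 under these centrings. With cyclic loess over all clusters the share was 24.2%, and with a second quantile normalization over the tested genes it was 53.6%. The 10 members kept their sign under all 22 alternatives, scalings included.

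Adamts1 encodes a secreted protease that cuts the proteoglycans versican and aggrecan. Its level was 12.01, 12.04, 11.75 and 11.75 on titled deficient arrays 1 to 4, against 14.10, 13.97, 14.09 and 13.72 on titled adequate arrays 1 to 4. The 8 values fell into groups far apart, with the lowest adequate array well above the highest deficient one. The difference was -2.08 ± 0.12 (SE, adjusted p = 1.56e-05), or 4.23-fold lower, which placed it at rank 56 by size among the genes called lower. Without titled adequate 3 and 4 it was -2.15, and without titled adequate 1 and 2 it was -2.02. The immediate early list holds Nr4a1, Fos and Egr1 and includes factors that bind AP-1 sites. Its 11 tested genes were also all lower (100%, against 13.7% of all genes). The summed level of the list was 12.29 to 12.61 on titled deficient arrays and 13.97 to 15.28 on titled adequate arrays. Its part in the Adamts1 result was not tested.

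The promoter windows of Adamts1, the member with the widest gap, and of Adam19, the only member that passed with an AP-1 match, are shown from RefSeq (GRCr8, 250 bases before to 50 after the annotated start, gene strand). Adamts1 lies on the minus strand at chr11:38427335-38427634 and Adam19 on the plus strand at chr10:30992511-30992810. Capitals mark TATAAA in Adamts1, which begins at position -70 from the start, and TGAGTCA, a match to the AP-1 motif, in Adam19, which begins at position -169.
Adamts1: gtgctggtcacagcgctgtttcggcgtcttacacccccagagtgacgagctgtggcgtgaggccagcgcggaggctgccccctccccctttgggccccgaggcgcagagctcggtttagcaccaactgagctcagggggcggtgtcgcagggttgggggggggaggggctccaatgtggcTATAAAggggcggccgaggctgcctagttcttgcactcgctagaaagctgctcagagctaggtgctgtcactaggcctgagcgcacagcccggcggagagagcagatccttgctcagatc
Adam19: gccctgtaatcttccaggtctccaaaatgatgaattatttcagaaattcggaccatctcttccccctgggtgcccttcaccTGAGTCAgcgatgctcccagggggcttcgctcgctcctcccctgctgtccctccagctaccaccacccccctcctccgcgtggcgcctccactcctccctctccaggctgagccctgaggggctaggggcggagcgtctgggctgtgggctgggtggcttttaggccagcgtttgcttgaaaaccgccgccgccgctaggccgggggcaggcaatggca
RefSeq windows were found for 35 of the 49 tested members, among them 8 of the 10 that passed, and not for Mmp2 and Adamts19. The AP-1 motif TGANTCA was searched on both strands and occurred in 2 of the 35 windows (Adam19 and Mmp12), against 7.33% of all 33469 promoters. TGACGTCA, the cyclic AMP response element, occurred in 0 of 35 and in 1.83% of all. ACGTG, the core of the hypoxia response element, occurred in 7 of 35, none of them of a member that passed, and in 19.3% of all. TATAAA occurred in 6 of 35 (17.1%) and in 14.2% of all. None of these motifs contains another. Such matches describe the letters of the window and show neither binding nor a cause.

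**Figure D2:**
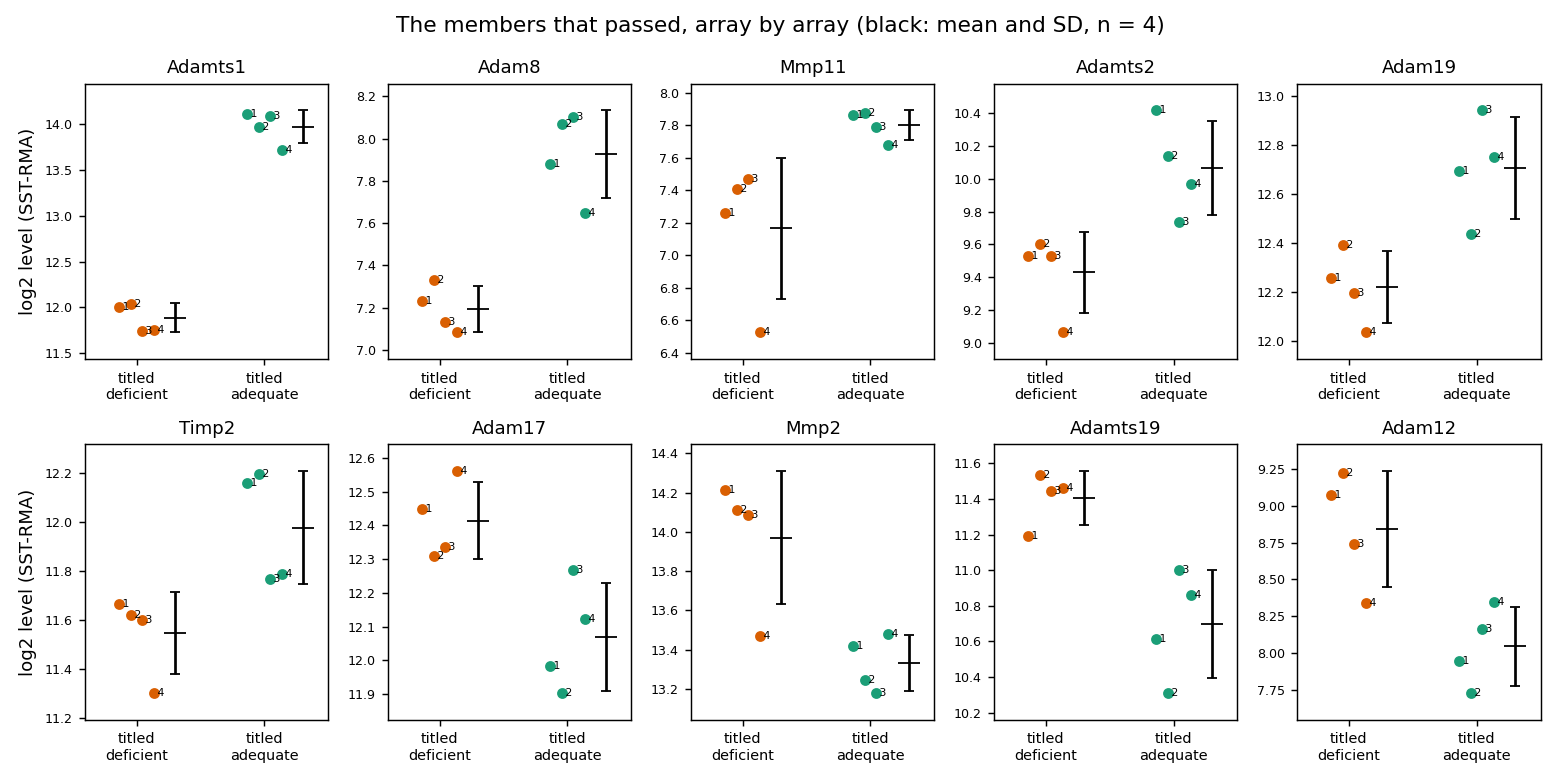
Deposited log2 level of each of the 10 members that passed, on each array (points numbered by replicate), titled deficient left and titled adequate right. Black marks give the mean and SD of 4 arrays. Groups overlap for Mmp2 and Adam12 only, in each case through titled deficient 4 and titled adequate 4.

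All 4 TIMPs were tested, and Timp2 alone passed. Timp2, the inhibitor that also takes part in pro-MMP2 activation, was at 11.67, 11.62, 11.60 and 11.30 on titled deficient arrays, against 12.16, 12.20, 11.77 and 11.79 on titled adequate arrays. The groups did not overlap, but the titled adequate arrays fell into a higher pair (1 and 2) and a lower pair (3 and 4). The difference was -0.43 ± 0.14 (SE, adjusted p = 0.0477), or 1.35-fold lower. It passed under 9 of the 22 alternatives: its adjusted p was 0.0509 to 0.113 when any array but titled adequate 3 was left out, and the difference shrank to -0.23 without titled adequate 1 and 2. The 3 scalings over the tested genes gave -0.40 to -0.32 and did not pass. Timp3, the matrix-bound inhibitor that also acts on ADAM17 and on aggrecan-cutting ADAMTS proteases, ran the other way. It was at 15.67, 15.51, 15.76 and 16.02 on titled deficient arrays and at 15.58, 15.36, 15.30 and 15.17 on titled adequate arrays. These ranges touch through deficient 2 and adequate 1, and the difference of 0.39 ± 0.13 (SE) did not pass (adjusted p = 0.0578), except without titled adequate 1 (0.46, adjusted p = 0.0455) and after centring on the tested genes. It was 0.23 (adjusted p = 0.206) under a second quantile normalization and 0.16 (adjusted p = 0.371) under cyclic loess. Timp1, an inhibitor that is induced in inflammation and injury, was at 9.11, 8.65, 8.75 and 8.25 in titled deficient lungs and at 8.36, 8.49, 8.35 and 8.61 in titled adequate lungs, and did not pass (0.23 ± 0.16, adjusted p = 0.319; 0.09 without titled deficient 1 and 0.38 without titled deficient 4). Timp4 lay close to the level filter, with means of 5.32 and 5.43, and its difference of -0.10 did not pass (adjusted p = 0.267).

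Of the 20 MMP genes on the array, 10 were tested. Mmp2, gelatinase A, which cuts denatured collagens and type IV collagen, was the one gelatinase or collagenase above the filter among the members, which leave out Mmp8 and Mmp9. It was at 14.22, 14.11, 14.09 and 13.47 on titled deficient arrays, against 13.42, 13.24, 13.18 and 13.48 on titled adequate arrays. Titled deficient 1 to 3 lay above every titled adequate array, while deficient 4 lay within their range. The difference was 0.64 ± 0.16 (SE, adjusted p = 0.0229), or 1.56-fold higher; it missed the threshold without titled deficient 1, 2 or 3 or titled adequate 2 or 3 (adjusted p = 0.0502 to 0.0643), without either titled adequate pair (adjusted p = 0.0710 and 0.0862) and under cyclic loess (0.46). Mmp14, which encodes MT1-MMP, the membrane-type activator of pro-MMP2, was at 10.43, 10.57, 10.55 and 10.12 in titled deficient lungs and at 10.65, 10.71, 10.75 and 10.84 in titled adequate lungs. Its groups did not overlap, yet the difference of -0.32 ± 0.12 (SE) did not pass (adjusted p = 0.0721). The 3 genes of the pro-MMP2 activation complex thus had differences of 0.64 (Mmp2), -0.32 (Mmp14) and -0.43 (Timp2), of which the first and the last passed.

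Mmp11, stromelysin-3, a stromal enzyme activated by furin inside the cell, was at 7.26, 7.41, 7.47 and 6.53 on titled deficient arrays, against 7.86, 7.87, 7.79 and 7.68 on titled adequate arrays. All titled deficient arrays lay below all titled adequate ones, with deficient 4 lowest by a wide margin. The difference was -0.64 ± 0.19 (SE, adjusted p = 0.0368), and -0.42 without titled deficient 4, where it still passed. It missed the threshold without titled deficient 1 or any single titled adequate array (adjusted p = 0.0566 to 0.0777), and without either titled adequate pair (adjusted p = 0.0803 and 0.156). The other transcript cluster of Mmp11 differed by -0.35.

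Among the MMPs that did not pass, the spread of some lay mainly within the titled adequate group. Mmp15, the membrane-type MT2-MMP, was at 11.25, 11.25, 11.20 and 10.85 in titled deficient lungs and at 11.42, 11.35, 10.16 and 10.52 in titled adequate lungs. Its difference was 0.27 (adjusted p = 0.481) over all arrays, -0.25 (adjusted p = 0.258) without titled adequate 3 and 4, and 0.80 (adjusted p = 0.0165) without titled adequate 1 and 2. Mmp12, macrophage elastase, was at 5.73, 5.66, 5.75 and 5.64 in titled deficient lungs and at 5.67, 5.66, 6.49 and 6.11 in titled adequate lungs. Here too only titled adequate 3 and 4 stood off the other arrays, so the difference was -0.29 (adjusted p = 0.239) over all arrays, 0.03 (adjusted p = 0.768) without that pair and -0.61 (adjusted p = 0.0106) without the other. The Mmp28 level, of an MMP known from epithelia and also called epilysin, was 6.92 to 7.23 in titled deficient and 7.24 to 7.48 in titled adequate lungs; its 3 transcript clusters differed by -0.25, -0.23 and -0.29, and it did not pass (adjusted p = 0.0832). Mmp16 (-0.14), Mmp17 (-0.05), Mmp19 (-0.15) and Mmp23 (-0.16) did not pass either.

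The collagenases Mmp1, Mmp1b and Mmp13, the stromelysins Mmp3 and Mmp10, the matrilysin Mmp7, and Mmp20, Mmp21, Mmp24 and Mmp27 did not reach the level filter of 5.32 and were not tested. Neither did Adamts16, Adamtsl5 and the 10 testis-type genes Adam2, Adam5, Adam6, Adam7, Adam18, Adam24, Adam25, Adam30, Adam32 and Adam34. Means of these 22 members over all arrays ran between 3.38 and 5.12, and their differences between -0.18 and 0.29. Medians of the antigenomic background probes were 3.37 to 3.54.

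In the proteoglycan-cutting ADAMTS class, the 6 genes other than Adamts1 did not pass. Adamts5, an aggrecanase, averaged 7.36 ± 0.30 in titled deficient and 7.05 ± 0.13 in titled adequate lungs (SD, n = 4 each; adjusted p = 0.153). Adamts4, Adamts8, Adamts15 and Adamts20 differed by -0.09, -0.01, 0.23 and -0.11. For Adamts9, a versican-cutting enzyme, values were 12.69, 13.01, 12.98 and 13.23 in titled deficient lungs and 13.10, 13.22, 12.29 and 12.49 in titled adequate lungs. That titled adequate split of 1 and 2 above 3 and 4 recalls Mmp15; its difference of 0.20 (adjusted p = 0.515) became 0.59 (adjusted p = 0.0454) without titled adequate 1 and 2 and -0.18 (adjusted p = 0.455) without titled adequate 3 and 4, and Adamts9 was chosen for naming after its values were seen.

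Of the 3 procollagen N-proteinases, which trim the amino-terminal propeptide of fibrillar collagens, Adamts2 passed. In humans, loss of ADAMTS2 causes a form of Ehlers-Danlos syndrome with fragile skin. Adamts2 was at 9.53, 9.60, 9.53 and 9.06 on titled deficient arrays, against 10.42, 10.14, 9.73 and 9.97 on titled adequate arrays. The groups did not overlap, with deficient 4 far below the other deficient arrays, and the difference was -0.63 ± 0.17 (SE, adjusted p = 0.0246), or 1.55-fold lower. It missed the threshold without titled adequate 1 or 2 (adjusted p = 0.0564 and 0.0536), and both left out gave -0.42 (adjusted p = 0.131). Adamts14 differed by 0.19 and Adamts3 by -0.04, and neither passed. None of the 6 tested genes of collagen carboxyl-end processing and crosslinking (Bmp1, Tll1, Pcolce, Lox, Loxl1, Loxl2) passed. An unadjusted p under 0.05 (limma) was found for 1, against 5789 of all 15465 genes.

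Adamts19, whose loss in humans is linked to heart valve disease and whose substrates are poorly known, was the ADAMTS gene that was higher. Its level was 11.19, 11.53, 11.44 and 11.46 on titled deficient arrays, against 10.61, 10.31, 11.00 and 10.86 on titled adequate arrays. All deficient arrays lay above all adequate ones. The difference was 0.71 ± 0.15 (SE, adjusted p = 0.0117), or 1.64-fold higher; it passed under all 22 alternatives and ranged between 0.48 and 0.94. Of the other 6 tested genes in its class, Adamts18 came nearest (0.17, adjusted p = 0.0596) with groups that did not overlap. Adamts7 was at 7.56, 7.56, 7.55 and 7.18 in titled deficient lungs and at 7.63, 7.63, 7.62 and 7.67 in titled adequate lungs, a gap without overlap that did not pass (adjusted p = 0.214). Adamts6, Adamts12 and Adamts17 lay within 0.25 of no difference.

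None of the 4 tested ADAMTS-like genes passed on the values as deposited. An unadjusted p under 0.05 (limma) was found for 2 of them, against 5789 of all 15465 genes. Adamtsl2, which in humans is mutated in geleophysic dysplasia, was at 10.33, 10.79, 10.90 and 10.53 in titled deficient lungs and at 11.70, 11.70, 10.72 and 11.18 in titled adequate lungs. Titled adequate 1 and 2 lay above every other array while adequate 3 lay within the deficient range. The difference was -0.69 ± 0.22 (SE, adjusted p = 0.0529); it was -0.89 (adjusted p = 0.0121) without titled adequate 3, -1.06 (adjusted p = 0.00607) without titled adequate 3 and 4, and -0.31 (adjusted p = 0.308) without titled adequate 1 and 2. With all arrays it also passed under the filter at percentile 50, a second quantile normalization, cyclic loess, centring on array medians and array weights (adjusted p = 0.0276 to 0.0470). Adamtsl4, tied in humans to displaced eye lenses, was at 6.62, 6.71, 6.64 and 6.59 in titled deficient lungs and at 7.20, 7.28, 6.62 and 6.76 in titled adequate lungs (-0.33, adjusted p = 0.122). Its difference was -0.60 (adjusted p = 0.00358) without titled adequate 3 and 4 and -0.05 without titled adequate 1 and 2. Adamts10, a fibrillin-binding protease named after its values were seen, had levels of 9.53, 10.01, 9.96 and 9.52 in titled deficient and 10.54, 10.47, 9.88 and 10.01 in titled adequate lungs (-0.47, adjusted p = 0.0890). Again titled adequate 1 and 2 were the high arrays, and the difference was -0.75 (adjusted p = 0.0226) without adequate 3 and 4 and -0.19 without adequate 1 and 2. Adamtsl1 (0.07) and Adamtsl3 (-0.12) did not pass.

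**Figure D3:**
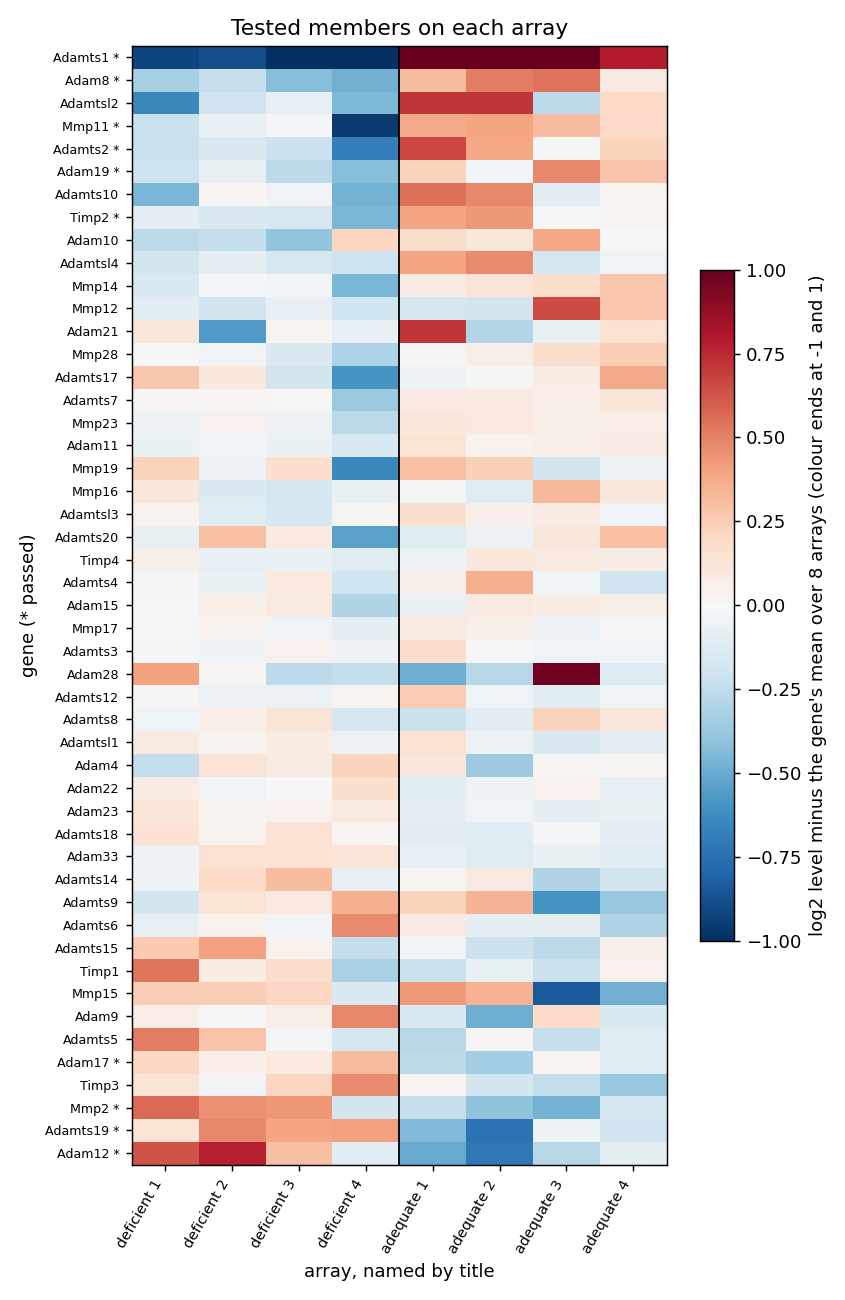
Log2 level of each tested member on each array, minus that gene's mean over the 8 arrays (colour, from -1 to 1). Titled deficient arrays are left of the line, genes run down by their difference, and an asterisk marks the 10 that passed; Adamtsl2, Adamts10 and Adamtsl4 are highest on titled adequate 1 and 2, and Mmp12 on titled adequate 3 and 4.

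Among the 9 broadly expressed ADAMs with an intact zinc site, 2 were higher, 2 were lower and 5 did not pass. The share that passed was 44.4%, against 21.9% of all genes. Adam8, a protease of leukocytes, was at 7.23, 7.33, 7.13 and 7.08 on titled deficient arrays, against 7.88, 8.07, 8.10 and 7.65 on titled adequate arrays. Every deficient array lay below every adequate one, and the difference of -0.73 ± 0.11 (SE, adjusted p = 0.00293), or 1.66-fold lower, passed under all 22 alternatives (-0.82 to -0.62). Among 11 tested neutrophil markers, 10 were also lower (90.9%, against 13.7% of all genes). Of these, Mmp9, Mpo and Cxcr2 lay below the level filter in titled deficient lungs and so entered through the titled adequate group. Of the other 8 markers, 7 were lower. The list had a summed level of 9.90 to 10.45 on titled deficient and 14.00 to 14.96 on titled adequate arrays. Among them Mmp8, neutrophil collagenase, was at 7.08, 6.90, 6.76 and 6.47 in titled deficient lungs and at 10.47, 10.24, 10.97 and 10.70 in titled adequate lungs (13.9-fold lower, adjusted p = 5.09e-06). Mmp9, gelatinase B, was at 4.94, 4.84, 4.95 and 4.80 in titled deficient lungs, below the level filter, and at 5.94, 5.40, 6.27 and 6.05 in titled adequate lungs. It entered the test through the titled adequate group, so no fold is given. Of 13 macrophage and monocyte markers, 8 were lower and 1 higher (69.2%, against 21.9% of all genes). Their summed levels were 14.79 to 14.92 in titled deficient and 14.98 to 15.52 in titled adequate lungs. Lyz2, the highest of these markers, weighs most in that sum and averaged 14.54 in titled deficient and 14.78 in titled adequate lungs. No marker reads 0 on this log2 scale. The part of these cells in the Adam8 result was not tested, and in whole lung fewer cells of a type and less RNA per cell cannot be told apart.

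Adam19, meltrin beta, needed for heart development in mouse and able to cut neuregulin, was lower as well. It falls outside the rule for named genes and was chosen after its values were seen. Its level was 12.26, 12.39, 12.20 and 12.04 on titled deficient arrays, against 12.69, 12.44, 12.94 and 12.75 on titled adequate arrays. The groups stayed apart by a narrow margin between deficient 2 and adequate 2, and the difference was -0.48 ± 0.13 (SE, adjusted p = 0.0245), or 1.40-fold lower. It missed the threshold without titled deficient 1 or 3 or titled adequate 3 or 4 (adjusted p = 0.0509 to 0.0582), and without the last pair it was -0.34 (adjusted p = 0.125).

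Adam12, meltrin alpha, a mesenchymal protease that cuts insulin-like growth factor binding proteins, had the widest positive difference among the members. Levels were 9.07, 9.22, 8.74 and 8.34 on titled deficient arrays, against 7.94, 7.73, 8.16 and 8.35 on titled adequate arrays. Deficient 4 and adequate 4 nearly coincide, while the other 3 arrays of each group lay apart. The difference was 0.80 ± 0.20 (SE, adjusted p = 0.0204), or 1.74-fold higher; without titled deficient 1 or 2 or titled adequate 2 it lay between 0.67 and 0.72 and missed the threshold (adjusted p = 0.0501 to 0.0552), as it did with the titled adequate pair 1 and 2 left out (0.59, adjusted p = 0.123).

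The best known sheddases differed by small amounts. Adam17, the tumour necrosis factor convertase, was at 12.45, 12.31, 12.34 and 12.56 on titled deficient arrays, against 11.98, 11.90, 12.27 and 12.12 on titled adequate arrays. The lowest deficient array lay just above the highest adequate one, and the difference was 0.35 ± 0.11 (SE, adjusted p = 0.0485), or 1.27-fold higher. It passed under 9 of the 22 alternatives and missed the threshold when any array but titled adequate 3 was left out (adjusted p = 0.0746 to 0.118); without titled adequate 1 and 2 it was 0.22. The 3 scalings over all clusters gave 0.25 to 0.32 and did not pass. Adam10, which cuts Notch receptors and cadherins, was at 13.61, 13.63, 13.48 and 14.09 in titled deficient lungs and at 14.06, 13.98, 14.26 and 13.87 in titled adequate lungs. Deficient 4 alone lay within the adequate range: the difference was -0.34 ± 0.14 (SE, adjusted p = 0.118) over all arrays and -0.47 (adjusted p = 0.0196) without that array. Adam9 (0.30), Adam33 (0.19), Adam15 (-0.08) and Adam28 (-0.04) did not pass; Adam28 was at 7.48 on titled adequate 3 and at 6.02 to 6.90 on the other 7 arrays.

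The 3 neural ADAMs, which lack a working zinc site, lay at low levels and none passed. Of these, 2 had an unadjusted p under 0.05 (limma), against 5789 of all 15465 genes. Adam11 differed by -0.16 (adjusted p = 0.0641) and Adam23 by 0.15 (adjusted p = 0.0709), each without overlap of the groups, and Adam22 by 0.10. Adam11 passed under 5 of the 6 other scalings (adjusted p = 0.0141 to 0.0338), all but centring on the tested genes (-0.05). Of the testis-type ADAMs, Adam4 (0.10) and Adam21 (-0.25) were tested and did not pass.

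**Figure D4:**
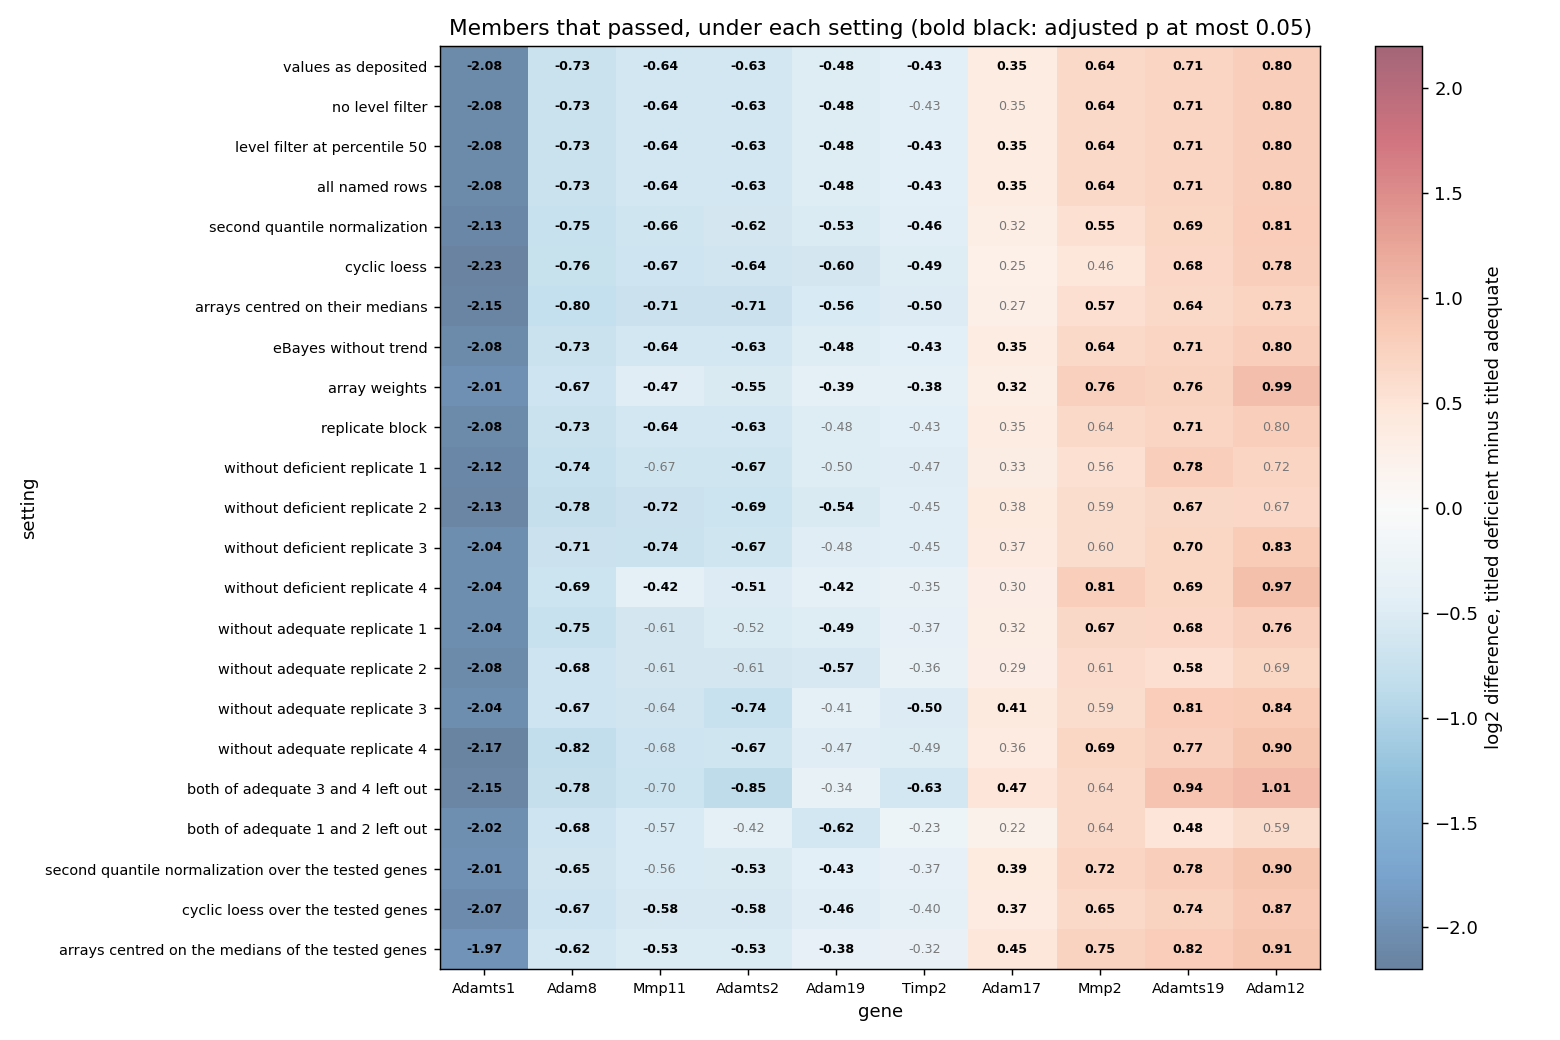
Difference in log2 level, titled deficient minus titled adequate, of the 10 members that passed, as deposited (first line) and under 22 alternatives. Bold black numbers passed at an adjusted p of 0.05; Adamts1, Adam8 and Adamts19 are bold throughout, Timp2 and Adam17 in 9 alternatives each.

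Proteins that activate, bind or clear metalloproteinases formed a list of 25 tested genes, of which 6 were lower and 1 was higher (28%, against 21.9% of all genes), with a median difference of -0.23. Plaur, the urokinase receptor that focuses plasminogen activation at the cell surface, was at 8.67, 8.61, 8.98 and 8.57 in titled deficient lungs and at 9.88, 10.09, 10.03 and 9.66 in titled adequate lungs (2.31-fold lower, adjusted p = 0.000449). Its ligand Plau was lower by less (-0.37), as were the membrane protease St14 (-0.47) and the cathepsin Ctsb (-0.40). Plau falls outside the rule for named genes. Ctsk, the collagen-cutting cathepsin K, was the gene that was higher: 7.19, 7.47, 7.26 and 7.24 in titled deficient lungs, against 6.82, 6.64, 6.58 and 6.63 in titled adequate lungs (1.54-fold, adjusted p = 0.00184). The count depended on the arrays and the scaling: 1 gene was lower and 1 higher without titled deficient 2, 2 were lower and 1 higher without titled deficient 3 or titled adequate 3, and 3 were lower and 1 higher without titled deficient 1 or titled adequate 1. Without titled deficient 4, titled adequate 4 or titled adequate 3 and 4, 3 were lower and 2 higher, and 2 were lower and 2 higher with arrays centred on the tested genes.

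For partners of ADAM10 and ADAM17, 3 of 10 tested genes were lower and none higher (30%, against 21.9% of all genes). Rhbdf2 encodes an iRhom, which carries ADAM17 to the cell surface, and was at 7.78, 7.78, 7.89 and 7.52 in titled deficient lungs and at 8.23, 8.26, 8.17 and 8.26 in titled adequate lungs (-0.49, adjusted p = 0.00683). Tspan15, a tetraspanin that carries ADAM10, was lower by 0.68 on the log2 scale (difference -0.68, adjusted p = 0.0185), and Pacsin3 differed by -0.28 (adjusted p = 0.0164). Of 17 tested ligands and receptors that ADAMs release from the membrane, 5 were lower and 2 higher (41.2%, against 21.9% of all genes). These counts were 2 lower and 1 higher without titled deficient 2, 3 lower and 1 higher without titled deficient 1 or 3 or titled adequate 1 or 2, and 3 lower and 2 higher without titled adequate 3 or with arrays centred on the tested genes. Cx3cl1, the membrane-bound chemokine fractalkine, was at 6.88, 6.76, 7.05 and 6.83 in titled deficient lungs and at 8.48, 7.71, 8.14 and 8.32 in titled adequate lungs (2.43-fold lower, adjusted p = 0.00092). Nrg1, neuregulin 1, was at 7.08, 6.96, 7.34 and 7.34 in titled deficient lungs and at 6.34, 6.60, 6.34 and 6.54 in titled adequate lungs (1.66-fold higher, adjusted p = 0.00245). The receptors Il6r (-0.63) and Tnfrsf1b (-0.51) were lower. These are transcript levels and say nothing of how much of each protein is cut.

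Of 22 tested matrix substrates, 2 were higher and 2 lower, a share of 18.2% that lies below the 21.9% of all genes, and the median difference was 0.00. Eln, elastin, was at 17.17, 17.23, 17.01 and 17.00 in titled deficient lungs and at 18.09, 18.06, 17.79 and 17.80 in titled adequate lungs (1.78-fold lower, adjusted p = 0.0012). Vcan, versican, a substrate of ADAMTS1, was at 14.05, 14.11, 13.91 and 14.39 in titled deficient lungs and at 13.58, 13.60, 13.73 and 13.73 in titled adequate lungs (1.37-fold higher, adjusted p = 0.0217). Neither of these pairs of groups overlapped. Tnc, tenascin C, was higher (0.95, adjusted p = 0.00988) and Lama5, a laminin chain of basement membranes, lower (-0.63, adjusted p = 0.0469). The groups overlapped for Lama5, with titled adequate 3 below titled deficient 3. Its level was 11.29, 11.55, 11.73 and 10.97 in titled deficient lungs and 12.35, 12.23, 11.67 and 11.81 in titled adequate lungs. Without titled deficient 4, 4 genes were higher and 1 lower, without titled deficient 2 or titled adequate 1 or 2 it was 1 each way, and without titled deficient 1, titled adequate 4 or titled adequate 1 and 2, 2 were higher and 1 lower. With arrays centred on the tested genes 5 were higher and 1 lower. Among fibroblast markers, 2 of 8 were lower and none higher (25%, against 21.9% of all genes). Summed levels of these markers were 18.29 to 18.55 in titled deficient and 18.41 to 18.57 in titled adequate lungs. Fn1, the highest of them, weighs most in this sum and averaged 18.06 in titled deficient and 18.03 in titled adequate lungs. Lung tissue markers were lower for 5 of 10 and higher for none (50%, against 21.9% of all genes). Their summed levels were 20.92 to 20.96 in titled deficient and 21.05 to 21.12 in titled adequate lungs. The highest lung marker, Sftpc, weighs most there and averaged 19.86 in titled deficient and 19.87 in titled adequate lungs.

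Which members passed depended on the arrays included and on the scaling. With all arrays, Adam10 also passed under cyclic loess and array weights, Mmp14 and Adamts10 with arrays centred on their medians, Adamts18 under array weights, and Timp3, Adamts5, Adamts18, Adam23 and Adam33 with arrays centred on the tested genes. When the level filter was dropped, Mmp7 (0.29) and Mmp21 (0.24) passed as higher, from levels below it, and Timp2 and Adam17 no longer passed. Without titled adequate 3 and 4, 10 members passed, 7 of them the same; Adam19, Mmp11 and Mmp2 no longer did, and Adamtsl2, Adamtsl4 and Adamts10 did. Without titled adequate 1 and 2, 7 members passed, 4 of them the same (Adamts1, Adam8, Adamts19 and Adam19), joined by Mmp12, Mmp15 and Adamts9. Without titled deficient 4, 9 passed, 8 of them the same, with Adam10 added and Timp2 and Adam17 lost.

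The authors' deposited table lists 9 of the members, namely 8 of the 10 that passed here and Adamtsl2. Its signed fold is 4.24 for Adamts1, 1.67 for Adam8, 1.65 for Adamtsl2, 1.56 for Adamts2, 1.51 for Mmp11, 1.40 for Adam19 and 1.35 for Timp2. In the same authors' deposited table Adam12 has a signed fold of -1.76 and Adamts19 one of -1.62. That fold sets the group the table numbers 2 over the one it numbers 1, where a negative value is the reciprocal of a ratio below 1. Under the group names of its columns all 9 run opposite to the directions by title given above. Mmp2 and Adam17, which passed here, are not on that list.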

How the data were processed

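Biotin-labelled total RNA from whole lung of newborn rats was measured on 8 Affymetrix arrays, and pooling of pups is not stated. The deposited values are log2 levels. The authors summarised them per gene by SST-RMA, and the submitters' processing notes name Affymetrix Expression Console. RMA includes a background correction, a normalization that makes arrays alike and a summary over probes, and the signal space transformation (SST) alters the scale, so folds depend on it. No version or build is stated there. The authors' deposited table adds a signed fold per transcript, selected by SAM (significance analysis of microarrays, 500 permutations, 5% false discovery rate, in BRB array tools), per its information sheet. Another 8 columns with linear values per sample stayed unused. The sheet's group names conflict with the titles, and titles were kept.

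Of 70580 entries, 1738 were controls. Among 68842 transcript clusters, the platform annotation, which can be old, pairs 23446 with 1 symbol, 505 with several and 44891 with none; names come from the first kind alone. Genes with a mean below percentile 30 (5.32) were left out. A linear model per gene (limma 3.58.1, lmFit and eBayes with trend, R 4.3.3) was run on the other 15465 genes, 4 arrays against 4, 2-sided, with Benjamini-Hochberg adjustment over all of them; SE is moderated, and a fold is 2 raised to the absolute difference. The steps were tested on simulated data. A list's summed level is the log2 of its summed linear signals, so the highest genes of the list weigh most. Members, roles, gene lists and the naming rule were chosen with earlier results of these data known. The rule names members that passed with an absolute difference of at least 0.5, a fixed set (all TIMPs, Mmp2, Mmp11, Mmp12, Mmp14, Adam10, Adam17, Adamts1), up to 2 with the smallest p per role, members with an array far from the others in its group, and up to 4 that passed per list; exceptions are marked where they occur. Replicate numbers were not treated as pairing the samples. Alternatives were other level filters, all transcript clusters per gene, second normalizations, array weights, no trend, a replicate block and left-out arrays.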

Additional observations from a re-analysis of the deposited data

Results flagged for a closer look

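In 6 of 98 groups of 4 checked, 1 array lay far from the other 3 of its group by Dixon's criterion, which chance meets in about 1 of 20 groups. Titled deficient 4 was that array in 4 of the 6. Its log2 level was 10.85 for Mmp15, against 11.20 to 11.25 on the other titled deficient arrays. For Adamts2 it was 9.06, against 9.53 to 9.60. For Adamts7 it was 7.18, against 7.55 to 7.56. For Adam9 it was 13.00, above the 12.51 to 12.58 of the others. Titled deficient 1 was at 6.23 for Adam33, against 6.41 to 6.44. Titled adequate 1 was at 6.42 for Adamts3, against 6.20 to 6.24 on the other titled adequate arrays.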

How the results depend on the processing

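Leaving out 1 array at a time, the number of genes called lay between 2178 (without titled deficient 2) and 3134, against 3390 with all arrays. Members higher in titled deficient lungs numbered 1 to 4 in these fits and members lower 3 to 7. Members higher numbered 2 under cyclic loess and 9 with arrays centred on the medians of the tested genes, an alternative chosen after seeing the data; members lower numbered 10 with arrays centred on the medians of all clusters. With the replicate number as a block, 1758 genes were called and 5 members passed (1 higher, 4 lower), without Adam12, Adam17, Adam19, Mmp2 and Timp2. Same-numbered arrays, each taken from its group mean, correlated at -0.17, 0.04, -0.35 and -0.28. These values show no pairing by number, but 4 arrays per group cannot exclude it. Of the values of 35 members under the alternatives, 664 kept their side of the threshold, 57 fell short of it, 32 newly passed and 9 changed sign, all 9 for members that had not passed. The other 14 tested members passed under no alternative and changed sign in 34 of 303 values. Adamts3 became 0.011 without titled adequate 1 (-0.061 to 0.011 with 1 array left out), 0.022 without titled adequate 1 and 2, and 0.068 with arrays centred on the tested genes, where Timp4 became 0.0043. Adam4 became -0.0053 without titled adequate 2 (-0.0053 to 0.197 with 1 array left out). Without titled adequate 3 and 4, Mmp12 became 0.035, Mmp15 -0.25, Mmp16 0.0017 and Adamts9 -0.18. Except where the left-out arrays are named, the cause was not tested. Genes near the level filter of 5.32, such as Timp4, have low levels, which limits what differences they can show. Medians of the antigenomic background probes were lower still, at 3.37 to 3.54.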
